A study of Mus musculus with 6 samples.

Results

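The guidance genes described here are the semaphorins, their plexin and neuropilin receptors, the ephrins and Eph receptors, the Slit ligands with their Robo receptors, and the netrins. Members were matched by gene symbol, and 64 of the 41214 genes in the deposited table matched. The gene families, and the list of transducers and co-receptors used below, were chosen with earlier results of these data known. The shares of changed genes below carry no correction for that choice. Gene-assigned RNA levels were compared between cultured mouse mammary tumor explant cells with a control hairpin (shCON, 3 libraries) and such cells with a hairpin against CdGAP (shCdGAP, 3 libraries). Both groups trace back to the mouse mammary epithelial line NMuMG and express Neu-NT, an activated ErbB2 receptor tyrosine kinase, and both were grown with insulin and G418. Arhgap31 encodes CdGAP, which inactivates the small GTPases Cdc42 and Rac1, and the question of the study was how CdGAP and Zeb2 repress E-cadherin. The labels give no number of hairpins, clones or cultures, so p-values rest on library-to-library spread alone, possibly technical. The cell type label names the control hairpin for all 6 libraries, and the genotype label and the titles separate the groups.

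Guidance cues were first described as signals that steer growing axons, and the same ligands and receptors act in epithelia, vessels and tumors. Semaphorins bind plexins, directly or, for most secreted class 3 members, through a neuropilin. The cytoplasmic part of a plexin is a GTPase-activating domain for small GTPases of the Ras family. Ephrins and Eph receptor tyrosine kinases are both held at the membrane and signal in both directions at cell contacts. Slits bind Robo receptors, whose signaling runs in part through GTPase-activating proteins of the srGAP family, and netrins bind Dcc, neogenin and Unc5 receptors.

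Depth ranged from 19176540 to 26824249 gene-assigned reads per library. Within shCdGAP, replicate 1 was unlike the others, with correlations across tested genes of 0.948 and 0.938 with replicates 2 and 3, against 0.996 between those (log2(FPKM + 1), genes not being independent replicates). It held the lowest level of Arhgap31, which measured 0.149, 0.826 and 0.748 FPKM across shCdGAP replicates 1, 2 and 3 and 1.19, 1.30 and 1.35 FPKM in shCON (log2 fold change -0.56, adjusted p = 0.0836, limma, and -0.35, 0.0157 without that library). With replicate number as a block the adjusted p of Arhgap31 was 0.0728. The authors' deposited DESeq2 comparison did not call Arhgap31 (log2 fold change -0.99, adjusted p = 0.125). FPKM are fragments scaled to gene length and library depth, so levels can be set side by side between genes. The epithelial label was checked on marker genes: Krt8 stood at 1546, 2892 and 3022 FPKM in shCdGAP and at 1491, 2241 and 2259 in shCON, whereas 6 of the 10 epithelial markers, Epcam, Krt5, Krt7, Krt14, Elf5 and Trp63, were under 1 FPKM in every library. Of the 10, Cdh1 and Krt7 rose in shCdGAP and Krt5 and Epcam fell. Both Krt5 and Epcam passed the filter on low genes through the shCON libraries alone. Cdh1, which encodes E-cadherin, measured 184, 152 and 167 FPKM there and 37.9, 56.9 and 57.2 in shCON (log2 fold change 1.73, SE 0.19, adjusted p = 0.00220, limma), while Epcam had 0 reads in every shCdGAP library. The summed level of 9 endothelial markers was 0.0403 to 0.114 FPKM in shCdGAP and 0.389 to 0.444 in shCON, and Emcn and Cldn5 had 0 reads in all. For 7 fibroblast markers the sum was 0.597 to 1.10 FPKM in shCdGAP and 0.814 to 0.947 in shCON, with Lum at 0 reads. For 7 neuronal and glial markers it was 0.223 to 0.457 and 0.279 to 0.399, with Sox10 at 0 reads. Of 6 leukocyte markers, Adgre1 had 0 reads in all libraries and Ptprc was under 0.02 FPKM in each, but Cd68 was lower in shCdGAP, and the summed level was 2.78 to 9.61 FPKM against 12.8 to 17.6. The part of these cell types in the differences below was not tested.

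The promoters of the members with the largest changes on the log2(FPKM + 1) scale that have an entry among RefSeq promoters (GRCm38.p6, the same assembly as mm10) are shown because the study concerns Zeb2, which is known to bind E-box letters. They are Robo1 and Plxnb1 among the rises and Epha2 and Epha5 among the falls. Each run covers up to 250 bases before the annotated start, 5′ to 3′ on the strand of the gene, and stops where an exon of the gene begins. Capitals mark CACCTG or its reverse complement CAGGTG.
Robo1: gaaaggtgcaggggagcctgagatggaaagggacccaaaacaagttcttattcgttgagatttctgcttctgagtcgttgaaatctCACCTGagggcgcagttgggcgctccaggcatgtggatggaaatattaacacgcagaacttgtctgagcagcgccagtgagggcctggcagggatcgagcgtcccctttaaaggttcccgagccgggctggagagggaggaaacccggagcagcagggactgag
Plxnb1: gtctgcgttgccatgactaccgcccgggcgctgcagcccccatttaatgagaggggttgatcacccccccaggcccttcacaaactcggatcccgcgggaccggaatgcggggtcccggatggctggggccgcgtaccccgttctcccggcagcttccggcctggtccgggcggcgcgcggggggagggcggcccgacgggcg
Epha2: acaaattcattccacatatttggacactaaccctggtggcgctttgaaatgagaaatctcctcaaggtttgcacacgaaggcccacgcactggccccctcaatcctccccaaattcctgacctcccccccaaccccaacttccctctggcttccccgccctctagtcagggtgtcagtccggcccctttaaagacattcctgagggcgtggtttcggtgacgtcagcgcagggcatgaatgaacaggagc
Epha5: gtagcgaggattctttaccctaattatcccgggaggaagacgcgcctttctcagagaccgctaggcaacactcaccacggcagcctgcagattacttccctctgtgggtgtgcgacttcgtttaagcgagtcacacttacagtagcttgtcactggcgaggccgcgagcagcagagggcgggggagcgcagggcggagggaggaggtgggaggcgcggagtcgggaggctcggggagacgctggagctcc
These windows lie at chr16:72662899-72663148 (plus strand), chr9:109095186-109095388 (plus strand), chr4:141300971-141301220 (plus strand) and chr5:84417383-84417632 (minus strand). The Robo1 window lies within an intron of longer Robo1 transcripts. Robo1 holds 1 match, and the windows of Plxnb1, Epha2 and Epha5 hold 0. Windows of up to 250 bases, not all of equal length, were found for 56 of the 64 members. Of these, 10 (17.9%) held the letters in at least 1 window, against 19.4% of all 27025 genes with a window. Among changed members, the letters were found for 1 of 6 that rose and for 4 of 13 that fell, and among members that did not pass the test for 2 of 21. A match in letters is a description of the window and not a measured binding site.

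Of the 64 members, 46 were expressed above the filter on low genes and were tested, and 32 had a mean of at least 1 FPKM. In shCdGAP 7 rose, 15 fell and 24 did not pass (limma on log2(FPKM + 1), Benjamini-Hochberg adjusted p under 0.05 over all 13483 tested genes). This is 47.8% of the tested members, 15.2% higher and 32.6% lower, where 21.0% of all tested genes changed, 9.92% higher and 11.1% lower. The median log2 fold change was -0.22 over the tested members and -0.01 over all tested genes. Ranges were separate between shCdGAP and shCON for 27 tested members (58.7%) and for 44.1% of all tested genes. Sema3a, Sema5a and Sema7a passed the filter through the shCON libraries alone and Ntn1 through the shCdGAP libraries alone, so these counts do not describe all 64 members. In these bulk libraries, fewer cells that express a gene and less RNA per cell cannot be told apart.

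Without shCdGAP replicate 1, 10 members were higher and 21 lower (67.4% of those tested, where 39.9% of all tested genes changed in the same fit), and the 22 changed members were all called again in the same direction. In shCdGAP, that replicate lay farthest from its group's median for 35 of 46 tested members (76.1%) and for 70.2% of all tested genes. The other single libraries moved the counts as well. The number of lower members was 7 without shCdGAP replicate 2, and 9, 6 and 7 without shCON replicates 1, 2 and 3, while 3 members were higher without shCON replicate 2 or 3. In those 4 fits 26.1%, 30.4%, 19.6% and 21.7% of the tested members changed, beside 10.9%, 12.8%, 9.17% and 9.88% of all tested genes. The calls that survived each library's removal were those of Efnb1, Epha7, Plxna4, Plxnb1, Robo3, Sema3a, Sema5a, Sema7a and Slit2. Of these, Sema3a, Sema5a and Sema7a had passed the filter through the shCON libraries alone. That filter was kept in these fits, so it favored their calls. The authors' deposited table gave an adjusted p for 54 members and called 28 of them (10 higher, 18 lower), where it called 23.8% of all genes with such a value. All 22 members changed here were among its 28 calls, in the same direction.

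**Figure D1:**
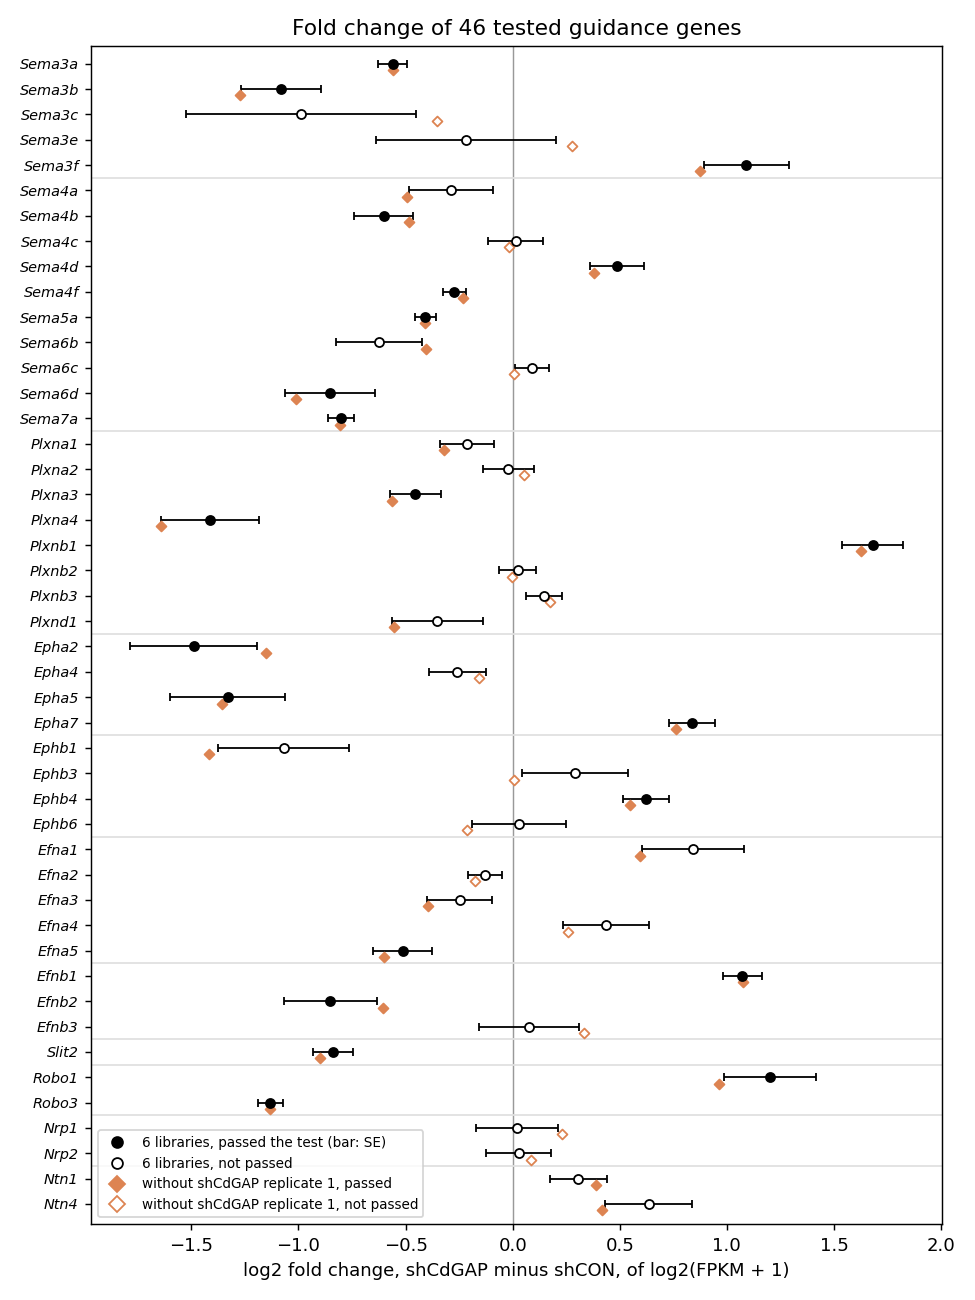
Log2 fold change (shCdGAP minus shCON, on log2(FPKM + 1)) of the 46 tested guidance genes, grouped by family, with the SE as bars; circles are from all 6 libraries and diamonds from the fit without shCdGAP replicate 1, filled where the test was passed. Robo3, Sema7a, Efnb1 and Plxnb1 keep nearly the same place with and without that library, whereas Sema3c and Sema3e, open in both, move toward or across 0.

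Secreted class 3 semaphorins are ligands of neuropilin and plexin complexes, several of them known as repellents of axons and endothelial cells. Of 5 tested members, 1 rose and 2 fell. Sema3f, a ligand of neuropilin-2, measured 33.4, 22.7 and 19.3 FPKM across shCdGAP replicates 1, 2 and 3 and 10.8, 11.3 and 10.8 FPKM in shCON. Every shCdGAP library was above every shCON library, with a log2 difference of 1.09 (SE 0.20, adjusted p = 0.0136, limma), or 0.88 without shCdGAP replicate 1. Removing shCON replicate 1, 2 or 3 ended the call (adjusted p = 0.0575, 0.0589 and 0.0618).

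Sema3b, its neighbor on chromosome 9, went the other way. It stood at 2.28, 1.29 and 1.11 FPKM in shCdGAP and at 3.90, 4.62 and 4.45 FPKM in shCON, with no overlap (log2 fold change -1.08, SE 0.19, adjusted p = 0.0113, limma). Removing shCdGAP replicate 2 ended that call (adjusted p = 0.0512), as did removing shCON replicate 2 or 3 (0.0581 and 0.0543). Sema3b and Sema3f lie 72271 bases apart, at 107597674 to 107609229 and 107681500 to 107710475 of mm10.

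Sema3a, a classic axon repellent, was at 0.0270, 0.0282 and 0.0373 FPKM in shCdGAP and at 0.656, 0.461 and 0.451 FPKM in shCON. Its mean fell 16.9-fold, from 242 reads over the shCON libraries to 14 over the shCdGAP libraries (log2 fold change -0.56, SE 0.07, adjusted p = 0.00294, limma), a value that the added 1 FPKM makes small for so low a gene.

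Sema3c and Sema3e, both well expressed, did not pass with all libraries. Sema3c stood at 7.27, 27.6 and 33.0 FPKM in shCdGAP and at 32.2, 44.2 and 40.8 in shCON, so that replicate 1 was far below the rest and replicate 3 overlapped the control range (adjusted p = 0.25, limma). Sema3e, the ligand of plexin-D1, showed the same low value in shCdGAP replicate 1, at 6.77, 18.7 and 23.1 FPKM against 14.8, 18.7 and 17.6 in shCON (adjusted p = 0.756). With both libraries numbered 1 left out, Sema3c passed as lower (log2 fold change -0.48, adjusted p = 0.00833, limma). In that fit 48.3% of all tested genes changed. Sema3f supplied 38.3% of the summed class 3 level in shCdGAP and 15.2% in shCON, and Sema3c 34.5% and 54.3%. In shCdGAP the share of Sema3f ranged from 25.2% to 67.1%, the highest being that of replicate 1, and its range in shCON was 14.2% to 17.3%. The share of Sema3c ranged from 14.6% to 43.1% in shCdGAP and from 51.6% to 55.7% in shCON. Sema3f exceeded Sema3c in replicate 1 of shCdGAP alone, and in replicates 2 and 3 Sema3c was the higher.

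Membrane semaphorins of classes 4 to 7 act at short range. Of 10 tested members, 1 rose and 5 fell, and the summed level of all 13 was 25.0, 26.7 and 25.5 FPKM in shCdGAP against 37.8, 32.6 and 33.8 in shCON, without overlap. Sema7a, the only semaphorin with a lipid anchor and a ligand of integrins and plexin-C1, was close to absent in shCdGAP. It stood at 0.0133, 0 and 0 FPKM there, from 1 read in the 3 libraries together, and at 0.848, 0.761 and 0.646 FPKM in shCON, from 180 reads. The ratio of the reads, scaled for depth, was 170-fold, with an exact 95% interval of 30.2 to 6768 that covers counting error only (log2 fold change -0.80, SE 0.06, adjusted p = 5.62e-04, limma). Its plexin receptor Plxnc1 had 6 reads in shCdGAP and 3 in shCON.

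Sema5a, which carries thrombospondin repeats and binds plexin-B3, was at 0.0162, 0.00843 and 0.00745 FPKM in shCdGAP and at 0.297, 0.397 and 0.329 FPKM in shCON, a 31.9-fold fall of the mean on 8 and 275 reads (adjusted p = 0.00279, limma). Sema4f stood at 0.00851, 0.0887 and 0.0940 FPKM in shCdGAP and 0.262, 0.255 and 0.335 in shCON (adjusted p = 0.0195), but not when shCdGAP replicate 2 was removed (adjusted p = 0.0590), nor without shCON replicate 2 or 3 (0.0657 and 0.0783), with quantile scaling (0.0863) and without limma's trend and robust steps (0.0619). Both were thus low in each group and lower in every shCdGAP library.

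Sema4b, the most abundant membrane semaphorin in these cells, went from 16.4, 14.0 and 14.2 FPKM in shCON to 7.85, 10.2 and 10.4 in shCdGAP (log2 fold change -0.60, SE 0.14, adjusted p = 0.0279, limma). Sema6d, a ligand of plexin-A1, went from 2.15, 1.15 and 1.07 FPKM to 0.667, 0.203 and 0.191 (log2 fold change -0.85, SE 0.21, adjusted p = 0.0368). For both genes replicate 1 differed most from its group's other libraries, in shCON as in shCdGAP. With replicate number as a block the adjusted p of Sema4b was 0.0712, and its call was also lost without shCdGAP replicate 2 (0.0692) and without shCON replicate 1, 2 or 3 (0.0934, 0.0879 and 0.0924). Sema6d lost its call with no filter on low genes (0.0649), without shCdGAP replicate 2 or 3 (0.121 and 0.0951) and without shCON replicate 1, 2 or 3 (0.0785, 0.0857 and 0.0719). Sema4d, the ligand of plexin-B1, was the 1 member that rose, and it is described with its receptor. Sema4c was at 6.74 ± 0.862 FPKM in shCdGAP and 6.65 ± 0.693 in shCON (SD, n = 3) and did not pass (adjusted p = 0.954).

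Plexins are the signaling receptors of semaphorins. Of 8 tested plexins, 1 rose and 2 fell. Plxnb1 stood at 8.25, 8.67 and 6.08 FPKM in shCdGAP and at 1.68, 1.67 and 1.69 FPKM in shCON, an increase of 4.57-fold in the mean (log2 fold change 1.68, SE 0.14, adjusted p = 8.81e-04, limma). Its call was kept in each of the 16 alternatives run. An antisense gene, Gm7628, shares 257 of the 9592 exonic bases of Plxnb1. The level of Gm7628 was 0.442 FPKM in shCdGAP against 0.0599 in shCON. Without strand in the counting, reads in the shared bases cannot be told apart. Over the whole gene, Plxnb1 had 4743 reads in shCdGAP and 1105 in shCON.

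Sema4d was at 4.77, 3.67 and 3.55 FPKM in shCdGAP and at 2.63, 2.55 and 2.45 FPKM in shCON (log2 fold change 0.49, SE 0.13, adjusted p = 0.0400, limma). All shCdGAP libraries were above all shCON libraries, but the call did not hold in the fit blocked by replicate number (adjusted p = 0.0555), with no filter on low genes (0.0623), with library size scaling (0.0568) and without any library other than shCdGAP replicate 1 (0.0553 to 0.148). Ligand and receptor were thus both higher in shCdGAP. Met, a receptor tyrosine kinase that plexin-B1 can associate with, was also higher, at 19.3, 27.7 and 31.4 FPKM against 13.9, 12.4 and 12.5 in shCON (log2 fold change 0.93, SE 0.19, adjusted p = 0.0180), and is named here after its values were seen. Mst1r, which encodes the related receptor Ron, rose as well, at 0.715 ± 0.0305 FPKM against 0.136 ± 0.0284 (SD, n = 3, adjusted p = 0.00100).

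Plxna4, a receptor of class 3 and class 6 semaphorins, fell from 3.76, 2.58 and 2.67 FPKM in shCON to 1.05, 0.276 and 0.269 in shCdGAP (log2 fold change -1.41, SE 0.23, adjusted p = 0.00883, limma), and the libraries numbered 1 were the highest of each group. Plxna3 was at 1.10 ± 0.290 FPKM in shCdGAP and 1.86 ± 0.00334 in shCON (SD, n = 3, log2 fold change -0.45, adjusted p = 0.0437). Plxna3 lost its call in 9 of 16 alternatives, among them the replicate block (adjusted p = 0.0696), a pseudocount of 0.1 FPKM (0.0517), no filter (0.0737), quantile scaling (0.0560) and the removal of shCdGAP replicate 2 or 3 (0.145 and 0.111) or shCON replicate 1, 2 or 3 (0.113, 0.147 and 0.140). Plxnb2, the most abundant guidance gene of all 64, was at 199, 189.6 and 187 FPKM in shCdGAP and at 195, 187 and 184 in shCON (log2 fold change 0.02, SE 0.09, adjusted p = 0.88). It supplied 75.3% of the summed plexin level in shCdGAP and 73.0% in shCON, and that sum was 255 ± 16.8 and 258 ± 7.23 FPKM (SD, n = 3). Plxna1 (33.5 ± 4.75 and 38.8 ± 2.49 FPKM) and Plxnd1 (16.0 ± 4.45 and 20.4 ± 3.33) did not pass with all libraries and passed as lower without shCdGAP replicate 1 (adjusted p = 0.0224 and 0.0190).

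Neuropilins are the co-receptors that bind class 3 semaphorins and certain forms of VEGF. Neither differed beyond the replicate spread. Nrp1 was at 18.1, 27.4 and 29.8 FPKM in shCdGAP and at 22.9, 25.1 and 24.8 in shCON (log2 fold change 0.02, SE 0.19, adjusted p = 0.956, limma). Nrp2 was at 8.52, 9.20 and 10.3 FPKM and at 11.4, 8.19 and 8.13 (log2 fold change 0.03, SE 0.15, adjusted p = 0.922). For both, the direction changed with library size scaling.

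**Figure D2:**
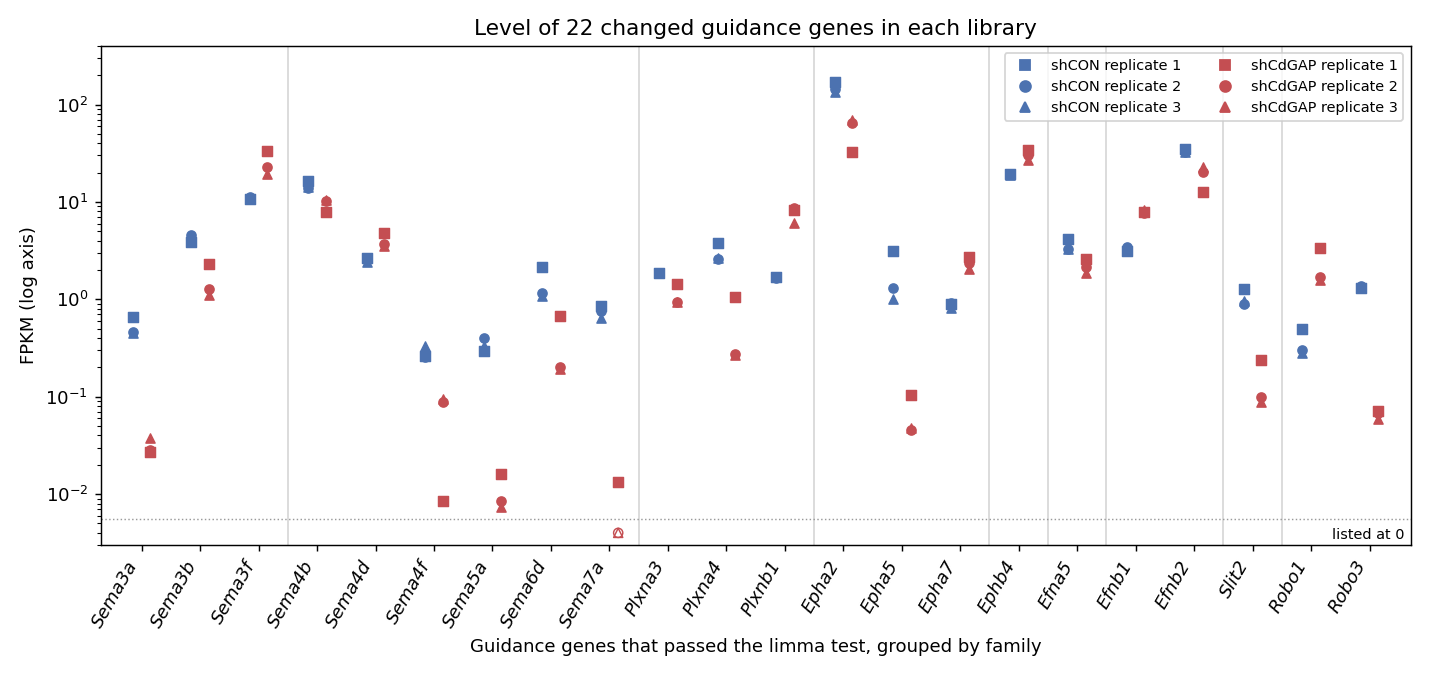
FPKM on a log axis in each of the 6 libraries for the 22 guidance genes that passed the test, grouped by family; blue marks shCON, red shCdGAP, and shapes the replicate number, with open marks for values listed at 0. The groups do not overlap for any of the 22 genes, which were picked by the test on these same libraries, so this adds no support to the calls. Ranges were separate for 44.1% of all tested genes. The distance between the groups is wide for genes near or below 1 FPKM in shCdGAP such as Sema7a, Sema5a, Epha5 and Robo3.

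EphA receptors bind ephrin-A ligands. Of 4 tested members, 1 rose and 2 fell, and the summed level of all 9 was lower in every shCdGAP library, at 49.8, 85.5 and 88.6 FPKM against 194, 168 and 159 in shCON. This sum followed Epha2, a receptor widely expressed in epithelia and carcinomas, which supplied 74.5% of it in shCdGAP and 86.9% in shCON. Epha2 stood at 32.7, 64.3 and 69.7 FPKM in shCdGAP and at 172, 145 and 136 FPKM in shCON. The groups were well apart, with replicate 1 lowest in shCdGAP and highest in shCON (log2 fold change -1.49, SE 0.30, adjusted p = 0.0180, limma, and -1.15 without shCdGAP replicate 1). It no longer passed when shCON replicate 1, 2 or 3 was removed (adjusted p = 0.0750, 0.0699 and 0.0614).

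Epha5 fell from 3.16, 1.29 and 1.02 FPKM in shCON to 0.105, 0.0454 and 0.0482 in shCdGAP, a 27.6-fold difference of the means on 1243 and 46 reads (log2 fold change -1.33, SE 0.27, adjusted p = 0.0187, limma). It no longer passed when shCdGAP replicate 2 or 3 was removed (adjusted p = 0.0686 and 0.0534), nor without shCON replicate 2 (0.0523). Epha7, in contrast, rose from 0.896, 0.912 and 0.824 FPKM to 2.72, 2.35 and 2.03 (log2 fold change 0.84, SE 0.11, adjusted p = 0.00388). Epha4 was at 16.6 ± 2.26 FPKM in shCdGAP and 20.0 ± 1.85 in shCON (SD, n = 3) and did not pass with all libraries (adjusted p = 0.229). It passed as lower with both libraries numbered 1 left out (log2 fold change -0.23, adjusted p = 0.0405, limma). The EphA receptors therefore did not move one way: the member with the highest level and Epha5 fell, and Epha7 rose.

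Ephrin-A ligands are tethered to the membrane by a lipid anchor. Of 5 tested members, 0 rose and 1 fell. Efna5 stood at 2.60, 2.14 and 1.88 FPKM in shCdGAP and at 4.16, 3.26 and 3.31 in shCON (log2 fold change -0.51, SE 0.14, adjusted p = 0.0443, limma). Its call was lost with no filter (adjusted p = 0.0693), without shCdGAP replicate 2 or 3 (0.134 and 0.109) and without shCON replicate 1, 2 or 3 (0.119, 0.115 and 0.118). Efna1, a high-affinity ligand of EphA2, stood at 30.5, 16.9 and 18.9 FPKM in shCdGAP and at 13.6, 9.99 and 11.2 in shCON. Its ranges did not overlap and its log2 fold change was 0.84 (SE 0.24), yet it missed the threshold (adjusted p = 0.0538) and passed it in the blocked fit (0.0236) and without shCdGAP replicate 1 (0.0139). Efna1, Efna3 and Efna4 lie in a row on chromosome 3, with gaps of 32757 and 10425 bases,, and none of them passed.

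EphB receptors bind ephrin-B ligands. Of 4 tested members, 1 rose and 0 fell. Ephb4, a receptor best known from veins and also expressed in mammary epithelium, stood at 33.9, 30.6 and 27.2 FPKM in shCdGAP and at 19.5, 19.6 and 19.1 in shCON (log2 fold change 0.62, SE 0.11, adjusted p = 0.0111, limma). It no longer passed when shCdGAP replicate 2 was removed (adjusted p = 0.0523), nor without shCON replicate 2 or 3 (0.0603 and 0.0614). Ephb1 was at 5.72, 2.37 and 2.15 FPKM in shCdGAP and at 8.97, 7.29 and 6.99 in shCON, apart but short of the threshold (log2 fold change -1.07, SE 0.30, adjusted p = 0.0553). It passed in the blocked fit (adjusted p = 0.0346) and without shCdGAP replicate 1, where its log2 fold change was -1.42 (3.55e-04). Ephb4 made up 80.4% of the summed EphB level in shCdGAP and 63.7% in shCON, with shares of 73.7% to 85.1% and 61.5% to 65.1% in single libraries.

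Ephrin-B ligands span the membrane and signal backward into their own cell. Of 3 tested members, 1 rose, 1 fell and 1 did not pass. Efnb1 stood at 7.91, 7.76 and 8.23 FPKM in shCdGAP and at 3.12, 3.45 and 3.22 FPKM in shCON (log2 fold change 1.07, SE 0.09, adjusted p = 8.68e-04, limma). Efnb2, the main ligand of EphB4, stood at 12.5, 20.1 and 23.0 FPKM in shCdGAP and at 34.9, 32.6 and 32.2 in shCON (log2 fold change -0.85, SE 0.22, adjusted p = 0.0408). Efnb1 kept its call in each of 16 alternatives. Efnb2 did not pass in the fit blocked by replicate number (adjusted p = 0.0678), with no filter (0.0666), without shCdGAP replicate 2 (0.0911) and without shCON replicate 1, 2 or 3 (0.130, 0.128 and 0.122). Efnb2 held 88.9% of the summed ephrin-B level in shCON and 67.2% in shCdGAP.

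**Figure D3:**
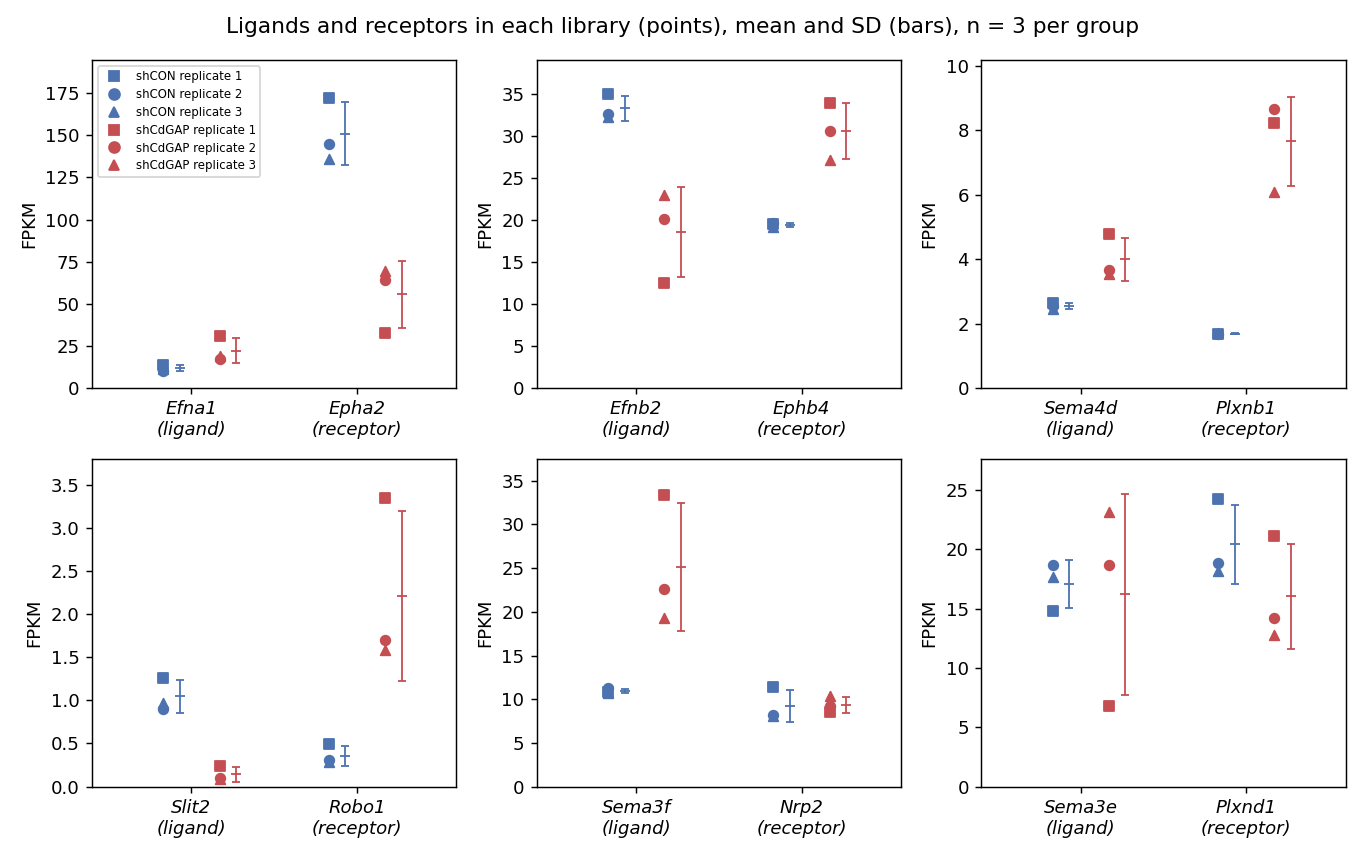
FPKM in each library (points, shaped by replicate number) with the mean (dash) and SD (error bar, n = 3 per group) for 6 known ligand and receptor pairs, each on its own linear axis from 0. Sema4d and Plxnb1 are both higher in shCdGAP, whereas in the pairs of Efnb2 with Ephb4 and of Slit2 with Robo1 the ligand is lower and the receptor higher; in the pair of Efna1 with Epha2 the receptor is lower and the ligand, at adjusted p = 0.0538, missed the threshold.

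Ligand and receptor levels were set side by side for known pairs, which were picked after their values were seen, and no pair was tested as a unit. Efnb2 fell where Ephb4 rose, and Slit2 fell where Robo1 rose. Sema3f rose while Nrp2 did not pass. Neither Sema3e nor Plxnd1 passed with all libraries.

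Slit2 is a secreted ligand of Robo receptors. It was the 1 Slit gene with enough reads to be tested, and it fell from 1.26, 0.904 and 0.969 FPKM in shCON to 0.238, 0.0997 and 0.0881 in shCdGAP, a 7.37-fold difference of the means (log2 fold change -0.84, SE 0.09, adjusted p = 0.00251, limma). Slit1 and Slit3 stayed under 0.06 FPKM in each library.

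Robo receptors showed an exchange of members at a low summed level. Robo3, a divergent Robo known for letting axons cross the midline, stood at 0.0711, 0.0673 and 0.0595 FPKM in shCdGAP and at 1.29, 1.39 and 1.33 FPKM in shCON. Its mean fell 20.2-fold, from 667 reads to 31 (log2 fold change -1.13, SE 0.06, adjusted p = 1.38e-04, limma). Robo1, a Slit receptor, stood at 3.35, 1.70 and 1.58 FPKM in shCdGAP and at 0.493, 0.303 and 0.282 FPKM in shCON (log2 fold change 1.20, SE 0.21, adjusted p = 0.0125), and lost its call without shCON replicate 2 or 3 (adjusted p = 0.0602 and 0.0597). Robo3 made up 71.8% to 81.7% of the summed Robo level in single shCON libraries and 2.08% to 3.80% in shCdGAP. Robo1 made up 17.4% to 27.4% and 96.2% to 97.9%. The sum itself was 3.42, 1.77 and 1.64 FPKM in shCdGAP and 1.80, 1.70 and 1.62 in shCON, and the ranges overlapped.

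Robo2, which follows Robo1 on chromosome 16, was too low to be tested. It had 0 reads in shCdGAP and 17 in shCON. With a floor of 3 reads over the shCdGAP group it was 5.37-fold lower, a value that leaves out the counting error of the 17 shCON reads. The exact 95% interval of the ratio, which counts the error of both groups, begins at 3.91-fold. The authors' deposited table called it lower (log2 fold change -2.28, adjusted p = 0.00613). Robo4, an endothelial Robo that lies 554 bases from Robo3 on chromosome 9, had 0 reads in all 6 libraries.

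**Figure D4:**
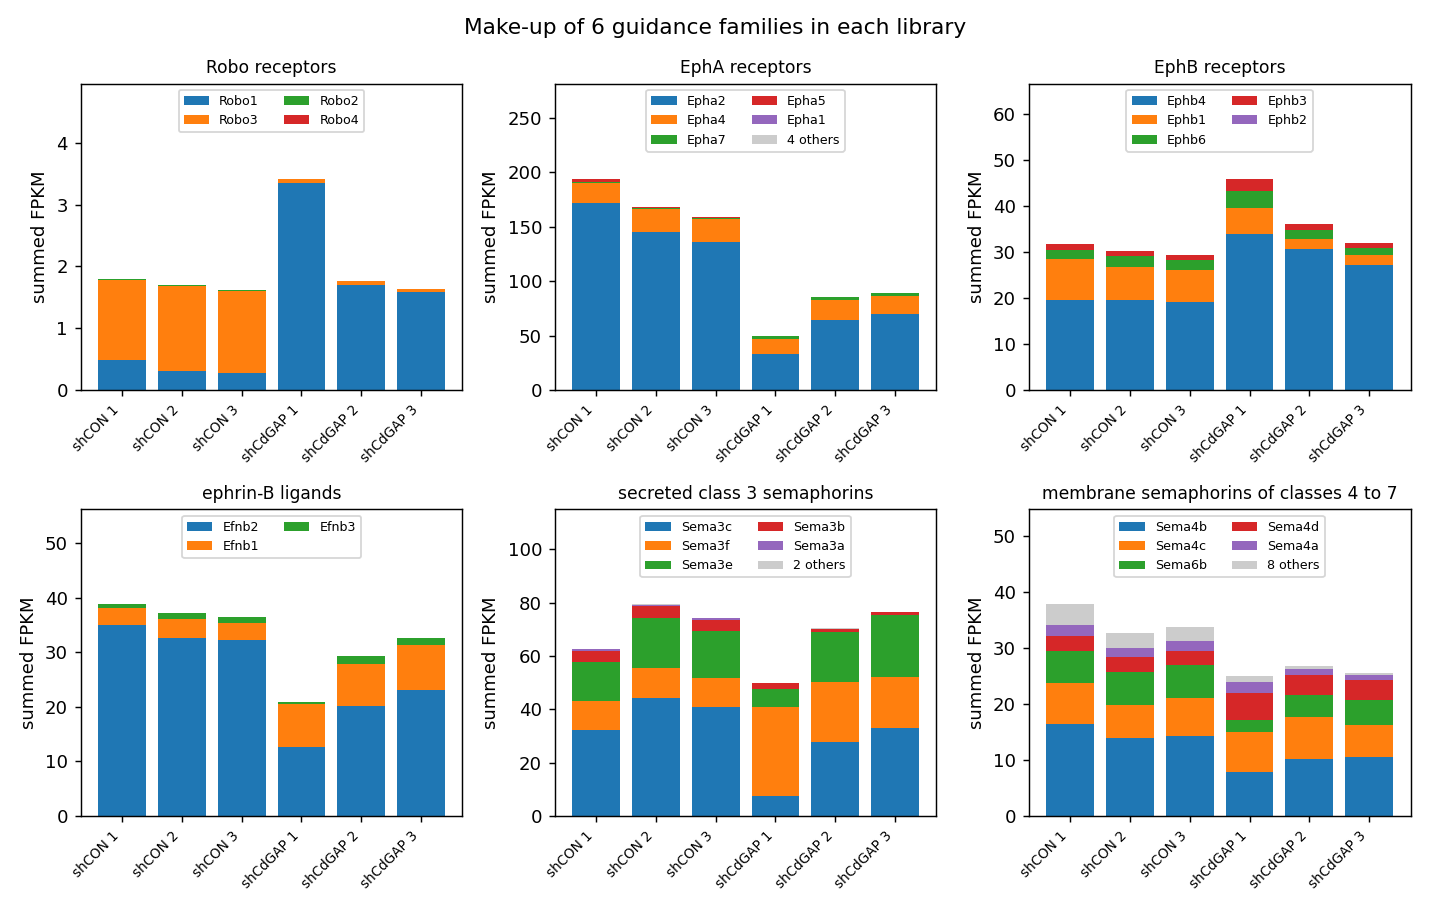
Summed FPKM of 6 guidance families in each library, stacked by member (the 5 most abundant, the rest in grey), on linear axes from 0. Robo3 makes up most of the Robo level in the 3 shCON libraries and Robo1 in the 3 shCdGAP libraries, Epha2 sets the height of the EphA bars, and shCdGAP replicate 1 differs from replicates 2 and 3 in most families.

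Netrins are laminin-related secreted cues. Of 2 tested members, neither passed. The ranges were separate for both, as they were for 44.1% of all tested genes. Ntn1 passed the filter on low genes through the shCdGAP libraries alone, which favors separate ranges. Ntn4, a basement membrane netrin, was at 6.10, 3.87 and 3.21 FPKM in shCdGAP and at 2.32, 2.32 and 2.52 FPKM in shCON (log2 fold change 0.64, SE 0.20, adjusted p = 0.0761, limma). It passed without shCdGAP replicate 1 (adjusted p = 0.0189) or replicate 3 (0.0483). Ntn1 was at 0.111, 0.131 and 0.552 FPKM in shCdGAP, from 120 reads, and at 0, 0.0174 and 0.0119 in shCON, from 5 reads (log2 fold change 0.31, SE 0.13, adjusted p = 0.16). Replicate 3 of shCdGAP was the high library here. Ntn1 passed without shCdGAP replicate 1 (adjusted p = 0.0481) and with limma-voom on recovered reads (0.0247), and both netrins were called higher in the authors' deposited table (log2 fold change 0.84, adjusted p = 0.0138 for Ntn4, and 3.07, 1.72e-05 for Ntn1).

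Besides Efna1, Ephb1, Ntn1 and Ntn4, the members gained without shCdGAP replicate 1 were Efna3, Plxna1, Plxnd1, Sema4a and Sema6b, all 5 as lower. Efna3 shares 344 of its 2434 exonic bases (14.1%) with the antisense gene Gm15998, which measured 0.328 FPKM in shCdGAP and 1.10 in shCON, beside 0.691 and 0.990 for Efna3. Reads in the bases shared by the pair cannot be told apart without strand. Sema6b stood at 2.30, 3.92 and 4.49 FPKM in shCdGAP and 5.69, 5.91 and 6.03 in shCON (adjusted p = 0.0784, and 0.0140 without that library). Besides Robo2, the calls of the authors' deposited table that were not made here with all libraries were Ephb1, Efna1, Sema6b, Ntn1 and Ntn4.

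The 18 members that were not tested were Epha1, Epha3, Epha6, Epha8, Epha10, Ephb2, Ntn3, Ntn5, Plxnc1, Robo2, Robo4, Sema3d, Sema3g, Sema4g, Sema5b, Sema6a, Slit1 and Slit3. None of them exceeded 0.0921 FPKM in a library, and Epha3, Epha8 and Robo4 had 0 reads in all. Their reads were too few for the test. Apart from Robo2, the ranges were separate for Slit3 (4 reads in shCdGAP and 18 in shCON), Sema4g (11 and 26) and Sema3d (5 and 1), with no test of these differences. The share of genes below the filter with separate ranges was not computed, so nothing is read from these.

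Positions in the GENCODE M21 annotation of mm10 were found for 63 of the members. Chromosome 9 and chromosome 5 held the most, with 7 each. On chromosome 9, 2 of 6 tested members rose (Sema3f, Plxnb1) and 3 fell (Robo3, Sema3b, Sema7a), where the median log2 fold change of all 766 tested genes of that chromosome was 0.06. On chromosome 5, 1 of 6 rose (Ephb4) and 3 fell (Epha5, Sema3a, Slit2), with a median of -0.01 over 844 tested genes. Robo1, at 72308306 to 73046095 on chromosome 16, rose on a chromosome whose 404 tested genes had a median of -0.25. Efna5 on chromosome 17 and Efnb2 on chromosome 8 fell on chromosomes with medians of 0.28 and 0.18. Other members moved in the direction of the median: Sema4d rose on chromosome 13 (0.23) and Sema6d fell on chromosome 2 (-0.15). Over all tested genes of the series, 9.92% were higher and 11.1% lower. The part of chromosome position in these changes was not tested.

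Transducers and co-receptors of guidance signaling were described from a list of 85 symbols, of which 83 were in the table and 64 were tested. Of these, 9 rose and 11 fell, and 44 did not pass, a share of 31.2% changed beside the 21.0% of all tested genes. Their median log2 fold change was -0.18. With the replicate number as a block 13 were called (20.3%, beside 18.2% of all tested genes in that fit), all of them among the 20, so that the share was then near the background. The count was 38 without shCdGAP replicate 1, which included all 20, and 9 without shCdGAP replicate 2, and 13, 9 and 8 without shCON replicates 1, 2 and 3. These are 59.4%, 14.1%, 20.3%, 14.1% and 12.5% of the list, beside 39.9%, 10.9%, 12.8%, 9.17% and 9.88% of all tested genes, so the count moved with the number of calls over all genes.

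Among the members of that list with the smallest p, Srgap3, a Rac GTPase-activating protein that binds Robo receptors, stood at 0.590, 0.301 and 0.0490 FPKM in shCdGAP and at 7.43, 5.38 and 5.28 FPKM in shCON (log2 fold change -2.43, SE 0.20, adjusted p = 7.64e-04, limma). Nrcam, an adhesion molecule that acts with neuropilin-2 in semaphorin receptors, fell from 3.18, 3.15 and 2.78 FPKM to 0.110, 0.228 and 0.340 (log2 fold change -1.72, adjusted p = 2.69e-04). Anks1b, whose product belongs to a family of Eph-binding adaptors, fell from 3.01 ± 0.101 to 0.439 ± 0.122 FPKM (SD, n = 3, adjusted p = 3.75e-04). Flrt1, of a family of ligands for Unc5 receptors, was at 0.597, 0.754 and 0.488 FPKM in shCdGAP and at 0.0177, 0.00621 and 0.0128 in shCON (adjusted p = 0.00203). It passed the filter through the shCdGAP libraries alone.

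Enah, an actin regulator that works downstream of Robo, rose from 22.4, 19.6 and 18.9 FPKM in shCON to 40.2, 47.2 and 50.9 in shCdGAP (log2 fold change 1.14, SE 0.13, adjusted p = 0.00229, limma). Vav2, a guanine nucleotide exchange factor that binds Eph receptors, fell from 10.2 ± 0.912 to 5.64 ± 0.395 FPKM (SD, n = 3, adjusted p = 0.00584). The kinase gene Abl2 fell from 24.2 ± 2.47 to 13.8 ± 1.43 FPKM (adjusted p = 0.00792). Unc5b, a netrin receptor named here after its values were seen, rose from 54.5 ± 4.42 to 79.5 ± 4.99 FPKM (adjusted p = 0.0171). Changed members of the list thus included genes for a Robo-binding GTPase-activating protein, adhesion co-receptors and a netrin receptor, in both directions.

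**Figure D5:**
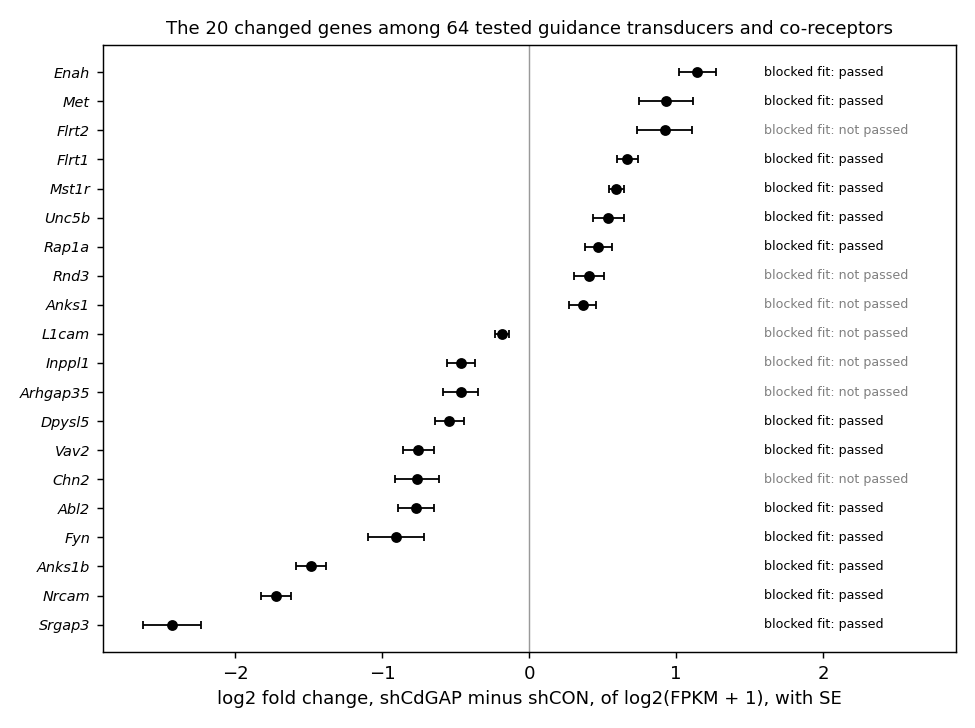
Log2 fold change with SE (shCdGAP minus shCON, on log2(FPKM + 1), 3 libraries per group) of the 20 changed genes among 64 tested transducers and co-receptors; the text at the right says whether the gene also passed with the replicate number as a block. Srgap3, at -2.43, and Enah, at 1.14, mark the ends of the range, and 13 of the 20 passed in the blocked fit.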

How the data were processed

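Total RNA of 6 libraries, 3 shCdGAP and 3 shCON, was sequenced; groups and replicate numbers come from the labels. Per the submitters' processing notes the authors used Trimmomatic, TopHat2 2.0.13, featureCounts, DESeq2 and the mm10 build, in roles that are not stated. Annotation and strand handling were not given in the sources used here. Per the file headers, the authors deposited FPKM per library and their DESeq2 comparison: a mean signal, a log2 fold change, its SE and test score, the p-value and the adjusted p-value. The FPKM had been divided by size factors. Multiplying by the mean signal over the mean FPKM and by 1 fitted factor per library returned whole reads at 100% of values (within 1e-06). These reads gave depth, CPM and the filter: 10 or more reads at median depth in 3 libraries and 15 in all.

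The main test was limma 3.58.1 (R 4.3.3) on log2(FPKM + 1), with trend and robust, 2-sided, over 13483 genes, adjusted by the Benjamini-Hochberg method at 0.05. The pseudocount understates changes of low genes. Values are means ± SD over 3 libraries. Intervals cover counting error only, and floors (3 reads) cover only that of the group listed at 0. The 16 alternatives were other pseudocounts, filters, scalings and tests, a replicate block, and libraries left out. The steps were tested on simulated data with a fixed dispersion of 0.02 and no outlying library. That test does not cover a library like shCdGAP replicate 1, nor changed genes of few reads. Python 3.11.15, pandas 2.3.3, scipy 1.17.1 and matplotlib 3.10.9 were used.

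As deviations from the group mean, libraries of equal number correlated at 0.432 (number 1), 0.387 (2) and 0.335 (3). The numbers may pair the libraries, which no label states. Deviations cancel out within a group, so a shift shared by the libraries numbered 1 alone would also give positive values among the others. These values cannot tell the 2 apart. The main test has no such term, and the fit with a replicate block is an alternative. shCdGAP number 2 correlated at 0.354 with shCON number 3. The members and lists were chosen with earlier results of these data known. By rule, genes named are all changed members, with library values for those with the smallest p per family and 5 further ones (in families with none changed, the 2 most abundant), and 8 genes of the pathway list with the smallest p. Outside this rule, values are also given for members that did not pass, such as Sema3c, Sema3e, Efna1, Ephb1, Sema6b and Plxnb2. The library values of Sema4d, and the genes Met and Unc5b, are likewise outside it. The labels give no batch.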

Additional observations from a re-analysis of the deposited data

How the results depend on the processing

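Of the 22 changed members, 9 kept their call in every alternative that gave them a value, and 13 lost it in at least 1. None of the 22 changed direction. Among the 9, Sema3a, Sema5a and Sema7a had passed the filter through the shCON libraries alone. With 1 library left out, higher members numbered 3 to 10, lower members 6 to 21, changed genes overall 1237 to 5373, and changed genes of the pathway list 8 to 38. With both libraries numbered 1 left out, lower members were 23, changed genes overall 6506 and changed pathway genes 43. With the replicate number as a block, 7 members were higher and 13 lower, Ephb1 and Efna1 were gained and Efnb2, Sema4b, Sema4d and Plxna3 lost, and pathway genes numbered 13. Counts of members and of all genes were within 1.5 times the reported ones under every other alternative. Nrp1, which did not pass in any fit listed here, had a log2 fold change of -0.036 with library size scaling, -0.056 and -0.11 without shCdGAP replicates 2 and 3, and -0.019 without shCON replicate 1, and 0.23 without shCdGAP replicate 1. Nrp2 had -0.025 with library size scaling, -0.039 without shCdGAP replicate 3, -0.042 and -0.046 without shCON replicates 2 and 3, and 0.17 without shCON replicate 1. The fits with 1 library left out have fewer samples, and shCdGAP replicate 1 stands apart; other causes were not tested. Members under 0.1 FPKM rest on few reads.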
